A study of Mus musculus with 12 samples.

Results

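The AP-1 transcription factors described here are 9 genes, Fos, Fosb, Fosl1, Fosl2, Jun, Junb, Jund, Batf3 and Maff, chosen by name among the 55421 Ensembl genes of a table of read counts. All 9 were found once and all 9 passed the filter on low counts, among 18108 genes tested. The counts came from polyadenylated RNA of the MOC2 line, which derives from an oral squamous cell carcinoma of the mouse, grown in a medium with serum, EGF, insulin, hydrocortisone and cholera toxin. A derivative labelled EV-proficient (MOC2-25) and a derivative labelled EV-deficient (MOC2-27), in which the release of extracellular vesicles (EVs, membrane particles shed by cells) was blocked genetically, were each sampled as DMSO-labelled controls and after 600 nM paclitaxel for 48 h. Paclitaxel stabilises microtubules and was used to make the cells senescent, and the study asked what the vesicles of senescent cells contribute to their signals. Each of the 4 groups held 3 libraries, 12 in all. The labels do not name the gene that was blocked, they give each EV label to a single derivative, and they do not say that the 3 libraries of a group came from separate cultures, so p-values measure the spread between these libraries. In bulk RNA a change in the share of expressing cells and a change in RNA per cell cannot be told apart.

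AP-1 is a family of dimers built from basic leucine zipper (bZIP) proteins. Jun proteins can pair with one another, whereas Fos proteins need a Jun partner to bind DNA. Several of the genes are immediate-early genes, which are switched on within minutes by growth factors, stress and MAP kinase signalling, and AP-1 dimers bind the DNA letters TGACTCA or TGACGTCA in the enhancers of genes for proliferation, invasion, matrix breakdown and inflammation. In squamous carcinoma AP-1 is known for driving invasive programmes, and AP-1 has also been described at the enhancers of senescent cells.

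Promoter sequence from RefSeq (build GRCm38.p6) was found for 8 of the 9 genes. The last 120 bases before the annotated start are shown for the 3 genes whose transcripts rose most under paclitaxel in EV-proficient cells and for Jun, whose transcript went opposite ways in the derivatives. Capitals mark TGACG, the left part of the TGACGTCA letters, or the variant TGACATCA.
Fos, chr12:85473770-85473889, plus strand: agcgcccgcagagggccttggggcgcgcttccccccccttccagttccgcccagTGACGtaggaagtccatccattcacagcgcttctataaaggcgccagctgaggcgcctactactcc
Fosb, chr7:19310046-19310165, minus strand: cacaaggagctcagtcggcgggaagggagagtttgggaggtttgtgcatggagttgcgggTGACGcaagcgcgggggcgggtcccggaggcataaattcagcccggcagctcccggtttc
Junb, chr8:84978749-84978868, minus strand: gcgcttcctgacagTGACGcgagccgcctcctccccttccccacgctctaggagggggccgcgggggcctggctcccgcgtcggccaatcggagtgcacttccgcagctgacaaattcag
Jun, chr4:95052223-95052342, minus strand: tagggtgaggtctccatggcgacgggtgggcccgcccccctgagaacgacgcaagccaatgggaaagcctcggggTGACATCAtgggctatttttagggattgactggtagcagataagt
Positions count back from the base before the start, which is base -1. The Fos stretch has TGACG at bases -66 to -62, the Fosb stretch at -60 to -56 and the Junb stretch at -106 to -102, and the Jun stretch has TGACATCA at -45 to -38. On either strand and within 250 bases before the start, TGACG was present in 17.8% and TGACATCA in 2.93% of 32851 annotated promoters. TGACG was chosen after these sequences had been read. The full TGACTCA (4.46% of promoters) and the CArG box bound by SRF (1.47%) were not found in the 250 bases before the starts of these 8 genes, and TGACGTCA (1.55%) was found at 1 of the 3 starts of Maff, where it overlaps TGACG on both strands. Another start of Maff, a gene with no called change under paclitaxel, has TGACATCA at -45 to -38 and TGACG on the reverse strand. Neither TGACG nor TGACATCA was found in the 250 bases before the starts of Jund, Fosl2 and Batf3, although Jund also rose under paclitaxel in both derivatives. The Jund promoter used ends at chr8:70697738, upstream of the gene start in the GENCODE M21 annotation (70698949). These matches are descriptions of letters, not of binding.

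Library totals ran from 23263472 to 62955757 counts, and the 9 genes had between 68 and 21609 counts in a library. Levels are given as CPM, read counts relative to the scaled library size, on which a floor of 3 counts is at most 0.121 CPM. Of the epithelial markers, Krt8 (844 to 2324 CPM), Krt18 (678 to 1561), Epcam (386 to 839), Cdh1 (595 to 990) and Krt14 (77.4 to 730) were present, while the basal squamous markers Krt5 (at most 0.171 CPM) and Trp63 (at most 0.180 CPM) were at or near 0. The blood, endothelial and stromal markers Ptprc, Cd3e, Lyz2, Pecam1, Cdh5, Col1a1 and Pdgfrb reached at most 1.80 CPM.

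The EV labels have to be read with care. The authors added a row for a dngfr sequence to the table, and its level did not follow the EV label across treatments. Its EV-proficient libraries averaged 8.99 ± 3.23 CPM with DMSO and 3.24 ± 0.68 CPM with paclitaxel, whereas its EV-deficient libraries averaged 2.15 ± 0.35 CPM and 10.9 ± 1.4 CPM (SD, n = 3 each), with no overlap between the EV labels under either treatment. Likewise, 12153 of the 18108 tested genes (67.1%) had EV-label differences of opposite sign under DMSO and under paclitaxel, and so had 8 of the 9 AP-1 genes. Among the 2834 genes called under both treatments, 2722 (96%) had opposite signs. Whether libraries were exchanged between the EV labels was not tested. Every statement below on a derivative therefore holds for the libraries as labelled. The effect of paclitaxel averaged over both derivatives, a contrast added after the data were seen, is given beside the others. It would stay the same if the EV-proficient and EV-deficient groups of a treatment exchanged labels as a whole. An exchange of single libraries could change it, because it is built from a mean per group.

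Fos and Junb rose under paclitaxel in both derivatives, with Jund rising less. Fosl2 fell in both. The share of counts from mitochondrial genes also differed by treatment, at 0.550% to 0.729% in DMSO and 0.846% to 1.45% in paclitaxel libraries, and its part in these results was not tested. Fosb and Jun rose only in the libraries labelled EV-proficient, Jun and Fosl1 fell in those labelled EV-deficient, and the interaction test below gives the difference for each of these 3 genes. With EV-proficient libraries, edgeR called 6 of the 9 genes at an adjusted p under 0.05, where it called 58.2% of all tested genes. Of these, 5 were higher and 1 was lower, beside 31.1% and 27.1% of all genes, and the drug-treated libraries did not overlap the controls for 6 genes, beside 62.3% of all. With EV-deficient libraries, edgeR called 7 of the 9, where it called 62.9% of all genes. Of these, 3 were higher and 4 lower, beside 32.4% and 30.5% of all genes, and 7 genes had no overlap, beside 68.7% of all. The member counts are near the background, so the counts say little about AP-1, and the directions and sizes of the single genes carry the description. The median log2 fold change of the 9 genes was 0.28 and -0.13 in the 2 derivatives, beside 0.05 and 0.07 over all genes. Averaged over the derivatives, 7 genes were called, where 68.4% of all genes were called. They were 4 higher and 3 lower ones, beside 37.1% and 31.3% of all genes, and Fos, Fosl2, Junb and Jund had no overlap between the 6 paclitaxel and the 6 DMSO libraries, as had 36.8% of all genes. The count of 7 ran from 6 to 8 with 1 library left out.

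**Figure D1:**
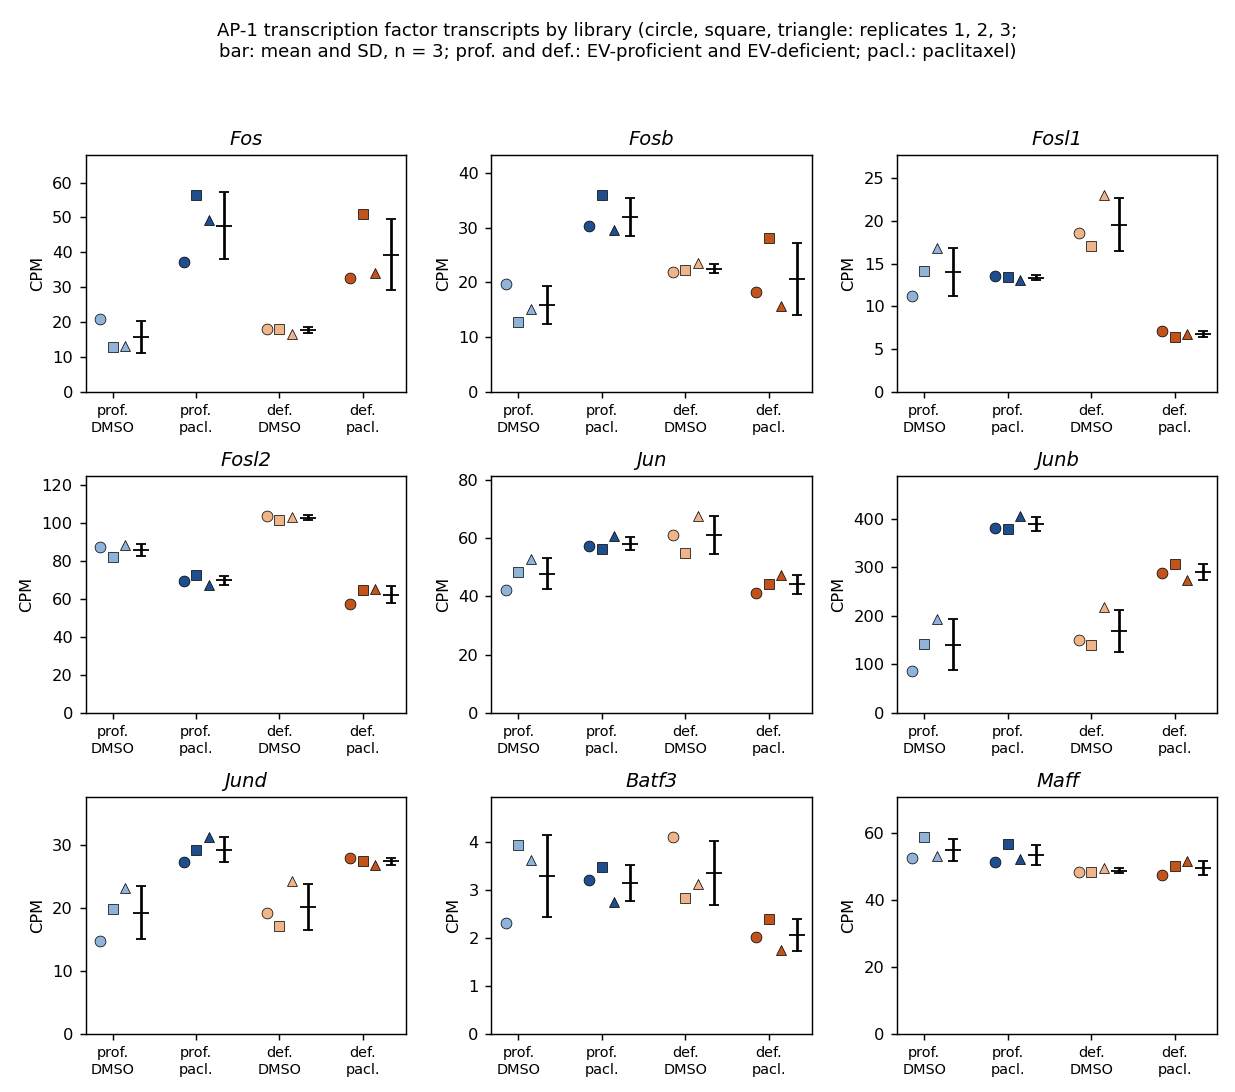
Level of each AP-1 gene in the 12 libraries, in CPM on an axis from 0, with 1 panel per gene and 1 marker per library; horizontal bars with whiskers give the mean and SD of 3 libraries. Fos and Junb are higher in every paclitaxel library than in any DMSO library, Fosl1 is lowest in the EV-deficient paclitaxel libraries (6.40 to 7.12 CPM), and Maff stays between 47.4 and 58.8 CPM.

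Fos encodes the founding Fos protein, an immediate-early activator with a very short-lived mRNA. It was at 20.9, 13.0 and 13.2 CPM in the EV-proficient DMSO libraries (replicates 1 to 3) and at 37.3, 56.5 and 49.3 CPM in the EV-proficient paclitaxel libraries. In the libraries labelled EV-deficient it was at 18.1, 18.1 and 16.6 CPM under DMSO and at 32.7, 51.0 and 34.2 CPM under paclitaxel. The lowest paclitaxel library thus lay above the highest DMSO library, and within each treatment the EV labels overlapped. The rise was 3.03-fold in EV-proficient cells (log2 1.60 ± 0.18 SE, edgeR adjusted p 9.1e-08) and 2.23-fold in EV-deficient cells (1.16 ± 0.17 SE, edgeR adjusted p 4.9e-06), and the average over both was 1.38 ± 0.12 (log2, SE; edgeR adjusted p 2.0e-09). The difference between these rises was not called (interaction -0.44 ± 0.24 SE, edgeR adjusted p 0.16). With 1 library left out it ran from -0.25, without EV-proficient paclitaxel replicate 2, to -0.73, without EV-proficient DMSO replicate 1. It was called in the latter fit, without EV-deficient paclitaxel replicate 2 (-0.63) and with no filter on low counts (-0.51, adjusted p 5.6e-04), and in none of the 16 other alternatives.

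Fosb encodes another activating Fos protein that is induced with Fos. Its libraries stood at 19.7, 12.8 and 15.2 CPM in EV-proficient DMSO and at 30.3, 36.1 and 29.6 CPM in EV-proficient paclitaxel, without overlap. In EV-deficient cells they stood at 21.8, 22.3 and 23.5 CPM under DMSO and at 18.3, 28.1 and 15.7 CPM under paclitaxel, where replicate 2 lay above and the other two below all DMSO libraries. The same library, EV-deficient paclitaxel replicate 2, was the highest of its group for Fos and Fosb. Fosb rose 2.02-fold with paclitaxel in EV-proficient cells (log2 1.01 ± 0.16 SE, edgeR adjusted p 1.8e-05) and was not called in EV-deficient cells (-0.13 ± 0.16 SE, edgeR adjusted p 0.50), a value that became -0.41 and was called without that library. The difference between the derivatives was called, at -1.14 ± 0.23 (log2, SE; edgeR adjusted p 3.7e-04).

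Fosl1, which encodes FRA1, a Fos protein without the strong activation domain of Fos that is known for its role in invasive carcinoma, changed in one derivative. It was at 11.2, 14.1 and 16.8 CPM in EV-proficient DMSO and at 13.6, 13.5 and 13.0 CPM in EV-proficient paclitaxel libraries, which overlapped. In EV-deficient cells it was at 18.5, 17.1 and 23 CPM under DMSO and at 7.12, 6.40 and 6.79 CPM under paclitaxel. Those 3 drug-treated libraries were the lowest of the 12. Fosl1 fell by 65.3% there (log2 -1.53 ± 0.13 SE, edgeR adjusted p 2.1e-09), its change in EV-proficient cells was not called (-0.07 ± 0.13 SE, edgeR adjusted p 0.69), and the interaction was -1.46 ± 0.19 SE (edgeR adjusted p 2.1e-06), the largest in size of the 9 genes. In the annotation 57.2% of the exon bases of Fosl1 (GENCODE M21, chr19:5447547-5455946) lie opposite an exon of Ccdc85b on the other strand. Ccdc85b was at 18.2 ± 6.4, 19.0 ± 1.8, 20.1 ± 4.0 and 14.5 ± 1.5 CPM (SD, n = 3 each; EV-proficient libraries with DMSO, then paclitaxel, then EV-deficient ones likewise), and was itself lower with paclitaxel in EV-deficient cells (-0.47 ± 0.17 SE, edgeR adjusted p 0.020). The libraries were stranded, but the sources used here do not say whether strand was used in counting, so the part of these shared bases in the fall of Fosl1 was not tested.

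Fosl2 encodes FRA2, the other Fos protein without that activation domain. Its EV-proficient libraries were at 87.0, 82.0 and 88.2 CPM with DMSO and at 69.1, 72.4 and 67.3 CPM with paclitaxel. Its EV-deficient libraries were at 104, 101 and 103 CPM with DMSO and at 57.1, 64.5 and 64.8 CPM with paclitaxel. No group overlapped another. Paclitaxel lowered it by 18.8% in EV-proficient cells (log2 -0.30 ± 0.06 SE, edgeR adjusted p 3.9e-04) and by 39.4% in EV-deficient cells (-0.72 ± 0.06 SE, edgeR adjusted p 2.2e-09), with an interaction of -0.42 ± 0.09 SE (edgeR adjusted p 6.5e-04). The fall averaged over both derivatives was -0.51 ± 0.05 (log2, SE; edgeR adjusted p 1.6e-09). The Fos genes thus divided by direction in that average, with Fos and Fosb (0.44 ± 0.11 SE, edgeR adjusted p 0.0018) higher and Fosl1 (-0.80 ± 0.09 SE, edgeR adjusted p 1.5e-07) and Fosl2 lower.

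Among the Jun genes, Junb changed most. JunB is a Jun protein that activates transcription less strongly than Jun and can restrain it. Junb was at 86.8, 141 and 194 CPM in EV-proficient DMSO and at 381, 380 and 406 CPM in EV-proficient paclitaxel libraries. In EV-deficient cells it was at 149, 140 and 219 CPM under DMSO and at 289, 307 and 273 CPM under paclitaxel. The DMSO libraries spread widely, and the paclitaxel libraries of both derivatives lay above all of them. The rise was 2.77-fold (log2 1.47 ± 0.18 SE, edgeR adjusted p 5.1e-07) in EV-proficient cells and 1.71-fold (0.78 ± 0.18 SE, edgeR adjusted p 7.2e-04) in EV-deficient cells, and the average was 2.18-fold (log2 SE 0.13, edgeR adjusted p 8.7e-08). The interaction was -0.69 ± 0.25 SE (edgeR adjusted p 0.033), and 8 of the 12 fits that left out 1 library, as well as DESeq2, did not call it (-0.45 without EV-proficient DMSO replicate 1, -0.48 without EV-deficient DMSO replicate 3). Prdx2, whose exons lie opposite 7.52% of the exon bases of Junb, was not called in EV-proficient cells (log2 -0.03 ± 0.07 SE, edgeR adjusted p 0.77) and fell in EV-deficient cells (-0.52 ± 0.07 SE, edgeR adjusted p 6.2e-07).

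Jun, the archetypal AP-1 subunit and the substrate of the JNK kinases, went opposite ways in the derivatives. It was at 42.2, 48.3 and 52.9 CPM in EV-proficient DMSO and at 57.3, 56.4 and 60.9 CPM in EV-proficient paclitaxel libraries, a rise of 0.28 ± 0.09 (log2, SE; edgeR adjusted p 0.0083). In EV-deficient cells it was at 61.0, 54.8 and 67.7 CPM under DMSO and at 41, 44.1 and 47.5 CPM under paclitaxel, a fall of 27.7% (log2 -0.47 ± 0.09 SE, edgeR adjusted p 7.1e-05). Neither pair of groups overlapped, and the interaction was -0.75 ± 0.12 SE (edgeR adjusted p 4.1e-05). The rise in EV-proficient cells was no longer called without EV-proficient DMSO replicate 1 (0.20) or without EV-proficient paclitaxel replicate 1 (0.25) or 3 (0.21). Averaged over the derivatives the change of Jun was not called (-0.09 ± 0.06 SE, edgeR adjusted p 0.19), but a fall was called without EV-proficient DMSO replicate 1 (-0.14) or EV-deficient paclitaxel replicate 3 (-0.15), and with upper-quartile scaling the value was 0.03. The antisense gene Junos, over 7.28% of the exon bases of Jun, had at most 61 counts in a library.

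Jund, the Jun gene that is expressed most steadily in resting cells, rose modestly in both derivatives. It was at 14.8, 19.9 and 23.1 CPM in EV-proficient DMSO and at 27.3, 29.1 and 31.3 CPM in EV-proficient paclitaxel libraries (log2 0.60 ± 0.13 SE, edgeR adjusted p 4.2e-04). In EV-deficient cells it was at 19.2, 17.1 and 24.3 CPM under DMSO and at 27.9, 27.5 and 26.8 CPM under paclitaxel (0.44 ± 0.13 SE, edgeR adjusted p 0.0046). Drug-treated libraries lay above the controls in both, and the interaction was not called (-0.16 ± 0.18 SE, edgeR adjusted p 0.53, 95% interval -0.52 to 0.20). An annotated antisense gene over 52.6% of its exon bases, Gm11175, had 0 counts in all 12 libraries.

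Batf3 and Maff stand apart from the Fos and Jun genes in function. BATF3 is a small bZIP protein that pairs with Jun proteins and is best known in dendritic cells. Its transcript was the scarcest of the 9, with EV-proficient libraries at 2.31, 3.92 and 3.63 CPM under DMSO and at 3.20, 3.48 and 2.75 CPM under paclitaxel, which overlapped. EV-deficient libraries were at 4.10, 2.84 and 3.11 CPM under DMSO and at 2.01, 2.40 and 1.74 CPM under paclitaxel, which did not overlap. It fell by 39.1% in EV-deficient cells (log2 -0.72 ± 0.22 SE, edgeR adjusted p 0.0074), not called without EV-deficient DMSO replicate 1 (-0.55). Its change in EV-proficient cells was not called (-0.05 ± 0.22 SE, edgeR adjusted p 0.85), and neither was the interaction (-0.66 ± 0.31 SE, edgeR adjusted p 0.098). The fall averaged over the derivatives (-0.38 ± 0.16 SE, edgeR adjusted p 0.034) was lost in 6 of 19 alternatives, among them upper-quartile scaling (-0.26) and the fits without EV-deficient DMSO replicate 1 (-0.30), EV-proficient DMSO replicate 2 (-0.32) or 3 (-0.36), or EV-deficient paclitaxel replicate 3 (-0.36).

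MAFF, a small Maf protein without an activation domain that pairs with CNC-type bZIP factors, had the paclitaxel effects nearest to 0 of the 9 genes. Maff was at 52.6, 58.8 and 53.2 CPM in EV-proficient DMSO and at 51.2, 56.6 and 52.2 CPM in EV-proficient paclitaxel libraries. It was at 48.3, 48.2 and 49.5 CPM in EV-deficient DMSO and at 47.4, 50.0 and 51.5 CPM in EV-deficient paclitaxel libraries. The paclitaxel effects were -0.04 ± 0.07 SE (edgeR adjusted p 0.64, 95% interval -0.17 to 0.09) and 0.03 ± 0.07 SE (edgeR adjusted p 0.75, 95% interval -0.11 to 0.16), so changes beyond those bounds were not seen in this test. With upper-quartile scaling, which raised the median log2 fold change of all genes in EV-deficient cells from 0.07 to 0.26, the second value was 0.21 and was called, a value below that shifted median.

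**Figure D2:**
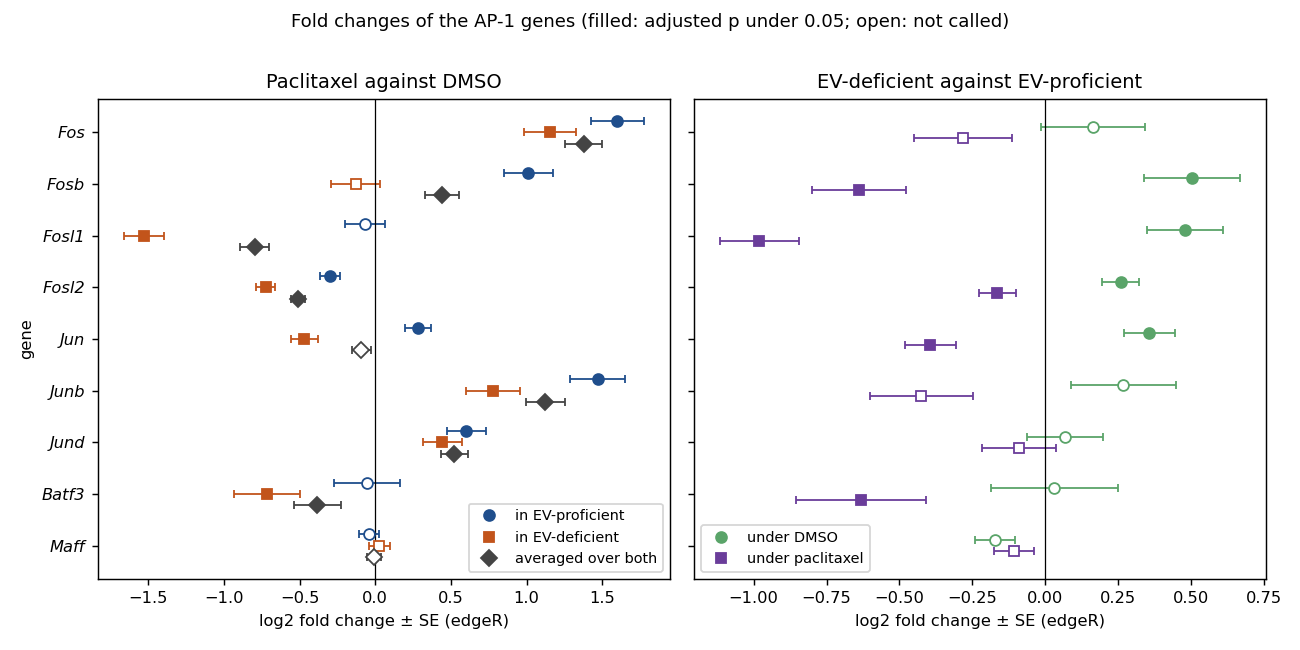
Log2 fold changes with SE of the 9 genes from edgeR, for paclitaxel against DMSO (left) and for EV-deficient against EV-proficient libraries (right); filled markers passed an adjusted p of 0.05. Fos, Junb and Jund lie to the right of 0 and Fosl2 to the left in both derivatives, and on the right the values under DMSO and under paclitaxel lie on opposite sides of 0 for 8 of the 9 genes.

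Read counts grow with transcript length, so levels were compared between genes per kilobase of annotated exon (GENCODE M21). On that scale Junb was the most abundant of the 9 in every group and Batf3 the least. The Junb level was 61.1 ± 23.3 CPM per kilobase in EV-proficient DMSO and 169 ± 6 in EV-proficient paclitaxel libraries, and 73.5 ± 18.8 and 126 ± 7 in the corresponding EV-deficient libraries (SD, n = 3 each). Its share of the summed level of the 9 genes went from 43.9% ± 8.5 under DMSO to 63.4% ± 1.6 under paclitaxel in EV-proficient libraries, and from 46.4% ± 4.4 to 61.0% ± 1.3 in EV-deficient libraries (SD, n = 3 each). The lowest share in a paclitaxel library, 60.1%, lay above the highest in a DMSO library, 51.7%. These shares are descriptions with no test, and without division by length they were lower (34.6%, 55.9%, 36.0% and 53.5% in that order).

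The order of the other genes also differed between treatments. Fos ranked 7 of 9 per kilobase in both DMSO groups and 3 of 9 in both paclitaxel groups, also with the longest transcript as the length. Rank 3 was not separated from its neighbours. In EV-proficient paclitaxel libraries Fos was at 20.3 ± 4.1 CPM per kilobase, beside 20.6 for Maff, 18.2 for Jun and 17.5 for Jund. In EV-deficient ones it was at 16.7 ± 4.3, beside 19.1 for Maff and 16.4 for Jund (means, with SD for Fos). The ratio of Fosl2 to Fos per kilobase was 1.39 ± 0.33 in EV-proficient DMSO and 1.42 ± 0.08 in EV-deficient DMSO, against 0.364 ± 0.075 and 0.398 ± 0.080 in the corresponding paclitaxel groups (SD, n = 3 each). The ratio of Junb to Jun was 4.0 ± 1.1 and 3.80 ± 0.59 in the DMSO groups and 9.27 ± 0.06 and 9.13 ± 1.00 in the paclitaxel groups. Both ratios separated the 6 DMSO from the 6 paclitaxel libraries, and neither separated the EV labels. The ratio of Fosl1 to Fos was 1.12 ± 0.45 and 1.29 ± 0.28 under DMSO and 0.334 ± 0.077 and 0.209 ± 0.056 under paclitaxel (EV-proficient first). It also separated the treatments, and under paclitaxel its EV-proficient libraries (0.276 to 0.421) lay above the EV-deficient ones (0.145 to 0.252). The 3 Jun genes together made up 63.5% ± 7.6 and 66.4% ± 3.9 of the summed level under DMSO and 76.9% ± 1.9 and 75.7% ± 1.5 under paclitaxel (EV-proficient first). This higher total came with the higher Junb share. The share of Jun went from 11.2% to 6.85% with paclitaxel in EV-proficient and from 12.3% to 6.73% in EV-deficient libraries. That of Jund went from 8.48% to 6.58% and from 7.69% to 7.98%. The summed level of the 4 Fos genes was 25.0 ± 1.8 and 31.3 ± 1.4 CPM per kilobase under DMSO and 39.2 ± 4.7 and 29.8 ± 5.4 under paclitaxel.

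**Figure D3:**
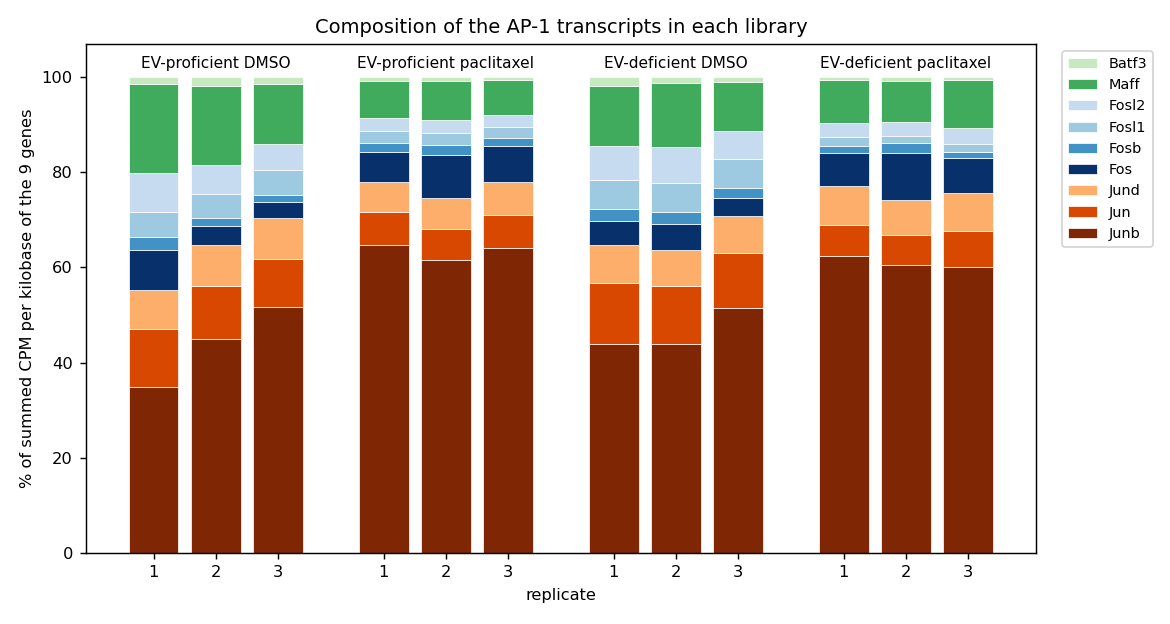
Share of each AP-1 gene in the summed CPM per kilobase of the 9 genes, in percent, as a stacked bar for each of the 12 libraries. The Junb share at the bottom is 34.9% to 51.7% in DMSO and 60.1% to 64.6% in paclitaxel libraries.

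Between the EV labels, 4 of the 9 genes were called under DMSO, each higher in the libraries labelled EV-deficient, where edgeR called 23% of all tested genes and 12.4% were higher and 10.6% lower. Without overlap were 5 of the 9, the fifth being Maff (log2 -0.17 ± 0.07 SE, edgeR adjusted p 0.072), beside 43.3% of all genes. Maff, lower in the EV-deficient libraries, was called in 11 of 20 alternatives, DESeq2 (-0.20, adjusted p 0.027) and both other scalings among them. The called genes were Fosb (log2 0.50 ± 0.16 SE, edgeR adjusted p 0.030), Fosl1 (0.48 ± 0.13 SE, edgeR adjusted p 0.0096), Fosl2 (0.26 ± 0.06 SE, edgeR adjusted p 0.0044) and Jun (0.36 ± 0.09 SE, edgeR adjusted p 0.0043). Fosb lost its call in 8 of the 12 fits with 1 library left out (such as 0.37 without EV-proficient DMSO replicate 2) and in DESeq2, and Fosl1 lost it without EV-proficient DMSO replicate 1 (0.34) or EV-deficient DMSO replicate 3 (0.35). Without the latter, 2 of the 9 genes were called. Under paclitaxel 5 of the 9 were lower in the libraries labelled EV-deficient and 0 higher (4 genes were not called), where 37.8% of all genes were called, 16% higher and 21.8% lower. The groups of 6 genes did not overlap, beside 44.1% of all. Fosl1 differed by -0.98 ± 0.14 SE (edgeR adjusted p 7.9e-06), Fosb by -0.64 ± 0.16 SE (edgeR adjusted p 0.0033), Batf3 by -0.63 ± 0.22 SE (edgeR adjusted p 0.030), Jun by -0.39 ± 0.09 SE (edgeR adjusted p 0.0011) and Fosl2 by -0.16 ± 0.06 SE (edgeR adjusted p 0.049). The Fosl2 value was not called by 13 of 20 alternatives (-0.07 with upper-quartile scaling), and Batf3 was not called by 6. The count of 5 was 3 with upper-quartile scaling, without EV-proficient paclitaxel replicate 1 or 2, and without EV-deficient paclitaxel replicate 1. Junb, at -0.42 ± 0.18 SE (edgeR adjusted p 0.067), was not called, although its groups did not overlap, and 6 alternatives called it.

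The interaction, the paclitaxel effect in EV-deficient minus that in EV-proficient cells, was called for 5 of the 9 genes and was negative for all 5, Fosl1, Fosb, Jun, Junb and Fosl2, where 40.7% of all tested genes were called, 16.9% positive and 23.8% negative. The median interaction of the 9 genes was -0.66, beside -0.04 over all genes. With upper-quartile scaling, 53.9% of the called interactions over all genes were positive against 41.4% with the scaling used elsewhere, and the median over all genes was 0.08. The corresponding shares of higher genes were 58.2% against 42.4% between the EV labels under paclitaxel and 63.4% against 51.5% for paclitaxel in EV-deficient cells. No AP-1 gene called in these 3 comparisons changed sign with that scaling, but the Junb interaction (-0.57, adjusted p 0.094) and, between the EV labels under paclitaxel, Fosl2 and Batf3 lost their calls.

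For each AP-1 gene, the transcripts with the most similar pattern were those with the smallest root-mean-square difference of centred log2 CPM over the 12 libraries, among 9861 genes with a symbol and at least 5 CPM on average. They were Vamp1 (0.16) and Coq10a (0.19) for Fos, Atg9b (0.09) and Ano9 (0.17) for Fosb, Rhob (0.13) and N4bp3 (0.16) for Fosl1, and Ylpm1 (0.05) and Nfx1 (0.05) for Fosl2. For the Jun genes they were Ppdpf (0.07) and Zfp687 (0.09) for Jun, Cdkn2b (0.21) and Dmrta2 (0.22) for Junb, and Yaf2 (0.11) and Hmg20b (0.11) for Jund. Batf3 was nearest to Slc35e4 (0.17) and Rps15 (0.17), and Maff to Tmem184b (0.04) and Spg7 (0.05). The median difference over all candidates ran from 0.28 for Maff to 0.82 for Fos. Of these genes, Cdkn2b encodes a CDK inhibitor used as a senescence marker and Rhob a small GTPase; Cdkn2b was at 15.0 and 16.4 CPM on average under DMSO and at 47.9 and 34.2 CPM under paclitaxel (EV-proficient first), the order that Junb had. Rhob went from 120 to 137 CPM with paclitaxel in EV-proficient libraries and from 187 to 68.9 CPM in EV-deficient ones, with the highest and the lowest group in common with Fosl1.

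Gene lists place these genes in their pathway. The lists are read by counts beside the background shares above, and no list was tested as a set. The kinases that activate AP-1 did not move one way. Of 15 upstream MAP kinase genes tested, 5 were higher and 5 lower with paclitaxel in EV-proficient cells, and 5 higher and 7 lower in EV-deficient cells. Mapk3, which encodes the kinase ERK1, rose in both (0.77 ± 0.07 and 1.25 ± 0.07, log2, SE), while Mapk14, which encodes p38 alpha, fell in both (-0.77 ± 0.07 and -0.58 ± 0.07), as did Map2k2, the ERK kinase MEK2 (-0.32 ± 0.07 and -1.17 ± 0.07). Map3k5, a stress kinase upstream of JNK and p38, rose more in EV-proficient cells (1.17 ± 0.10 and 0.26 ± 0.10; interaction -0.91 ± 0.14, edgeR adjusted p 1.4e-05). Map3k1 rose in both (0.33 ± 0.09 and 0.53 ± 0.09). None of the edgeR adjusted p-values of these kinase changes with paclitaxel exceeded 0.024. Of the 4 genes for ligases that mark Jun for destruction, Fbxw7 was higher in EV-proficient cells (0.41 ± 0.09, edgeR adjusted p 2.7e-04), and Det1 (-0.62 ± 0.09, edgeR adjusted p 4.6e-06) and Rfwd2, now called Cop1 (-0.24 ± 0.07, edgeR adjusted p 0.0037), were lower in EV-deficient cells. In the other derivative Fbxw7 (-0.05 ± 0.08, edgeR adjusted p 0.62), Det1 (-0.16 ± 0.09, edgeR adjusted p 0.15) and Rfwd2 (-0.02 ± 0.07, edgeR adjusted p 0.80) were not called. The interaction was called for Fbxw7 (-0.47 ± 0.12, edgeR adjusted p 0.0033) and Det1 (-0.46 ± 0.13, edgeR adjusted p 0.0072) but not for Rfwd2.

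Immediate-early genes were listed together with SRF and its ternary complex partners, the factors that drive them. Of 20 tested, 14 were higher and 3 lower with paclitaxel in EV-proficient cells (median log2 fold change 0.46, beside 0.05 over all genes), and 8 were higher and 8 lower in EV-deficient cells (median 0.15, beside 0.07). Egr1, an immediate-early zinc-finger factor, rose from 41.6 ± 1.3 to 112 ± 9 CPM in EV-proficient cells (1.43 ± 0.09, log2, SE) and from 42.2 ± 3.2 to 76.3 ± 11.3 CPM in EV-deficient cells (0.85 ± 0.09), and Btg2, an antiproliferative p53 target, rose in both (1.5 ± 0.13 and 1.83 ± 0.13). Srf itself fell in both (-0.70 ± 0.09 and -1.53 ± 0.09, log2, SE), as did Cyr61, a secreted matrix protein gene (-1.07 ± 0.05 and -1.08 ± 0.05), whereas Ctgf, a gene of the same protein family, rose in both (0.18 ± 0.06, edgeR adjusted p 0.013, and 0.39 ± 0.06, edgeR adjusted p 4.9e-06). Klf6 had the most unequal change of the list, from 571 ± 25 to 115 ± 9 CPM with paclitaxel in EV-proficient libraries and from 130 ± 2 to 528 ± 25 CPM in EV-deficient libraries (SD, n = 3 each; interaction 4.33 ± 0.09 SE, edgeR adjusted p 1.2e-18). None of the edgeR adjusted p-values of the changes of Egr1, Btg2, Srf, Cyr61 and Klf6 with paclitaxel exceeded 9.7e-07. Of the 20 genes, 9 had a called negative interaction and 2 a called positive one, where 23.8% and 16.9% of all genes had, and 9 were not called, with Klf4 (-1.52 ± 0.10 SE) and Ier5 (-1.32 ± 0.12 SE) the most negative (largest edgeR adjusted p 9.7e-09).

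The other bZIP genes that can pair with these proteins were mixed. Of 18 listed, 16 were tested, and Batf and Batf2 were too scarce. With paclitaxel 8 were higher and 3 lower in EV-proficient cells, and 7 higher and 4 lower in EV-deficient cells. Nfe2l3, a CNC factor that pairs with small Mafs, rose in both (1.99 ± 0.21 and 1.84 ± 0.20, log2, SE; larger edgeR adjusted p 8.1e-08). Mafk, a small Maf like Maff, fell in EV-proficient cells (-0.91 ± 0.06, edgeR adjusted p 8.4e-11) and was not called in EV-deficient cells (-0.11 ± 0.06, edgeR adjusted p 0.14), with a called interaction (0.80 ± 0.09 SE, edgeR adjusted p 2.4e-07). Jdp2, which encodes a Jun partner that represses AP-1 sites, rose there (0.54 ± 0.10, edgeR adjusted p 6.2e-05), was not called in EV-deficient cells (-0.21 ± 0.10, edgeR adjusted p 0.065) and had a called interaction (-0.74 ± 0.14 SE, edgeR adjusted p 1.5e-04). Atf4, the effector of the integrated stress response, fell in EV-deficient cells (-0.70 ± 0.06, edgeR adjusted p 1.4e-09) and was not called in EV-proficient cells (-0.11 ± 0.06, edgeR adjusted p 0.13; interaction -0.59 ± 0.08, edgeR adjusted p 8.0e-06). Bach1 rose in EV-deficient cells (0.53 ± 0.08, edgeR adjusted p 3.5e-06) and in EV-proficient cells (0.24 ± 0.08, edgeR adjusted p 0.011).

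Genes that textbooks give as AP-1 targets went both ways. Of 24 listed, 22 were tested, and Il6 and Mt2 were too scarce. With paclitaxel 12 were higher and 6 lower in EV-proficient cells (median 0.19), and 9 higher and 10 lower in EV-deficient cells (median -0.22). Spp1, which encodes osteopontin, went from 44.2 ± 4.8 to 210 ± 12 CPM and from 54.2 ± 5.8 to 210 ± 34 CPM (SD, n = 3 each), and the matrix protease gene Mmp9 from 2.60 ± 0.61 to 10.2 ± 1.9 CPM and from 1.42 ± 0.10 to 13.9 ± 2.1 CPM, both called in the average over the derivatives (2.10 ± 0.07 and 2.63 ± 0.13, log2, SE; larger edgeR adjusted p 1.1e-13). Plaur, the receptor of the protease urokinase, went the other way, from 212 ± 24 to 77.7 ± 5.3 CPM and from 269 ± 16 to 62.7 ± 14.3 CPM (-1.77 ± 0.08 in the average, edgeR adjusted p 5.4e-14), as did Ptgs2, the inducible cyclooxygenase (-1.19 ± 0.06 in the average, edgeR adjusted p 1.0e-13). Vegfa, the endothelial growth factor gene, rose with paclitaxel in EV-proficient cells from 47.9 ± 3.2 to 270 ± 6 CPM (2.5 ± 0.10, edgeR adjusted p 6.1e-14) and less in EV-deficient cells, from 91.9 ± 1.1 to 112 ± 24 CPM (0.29 ± 0.10, edgeR adjusted p 0.015; interaction -2.21 ± 0.14 SE, edgeR adjusted p 5.9e-11). Of the 22 genes, 12 had a called negative interaction and 6 a called positive one, where 23.8% and 16.9% of all genes had, and 4 were not called (median -0.30). Mmp9 was among the positive ones (1.31 ± 0.25 SE, edgeR adjusted p 2.5e-04), opposite in sign to Vegfa.

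**Figure D4:**
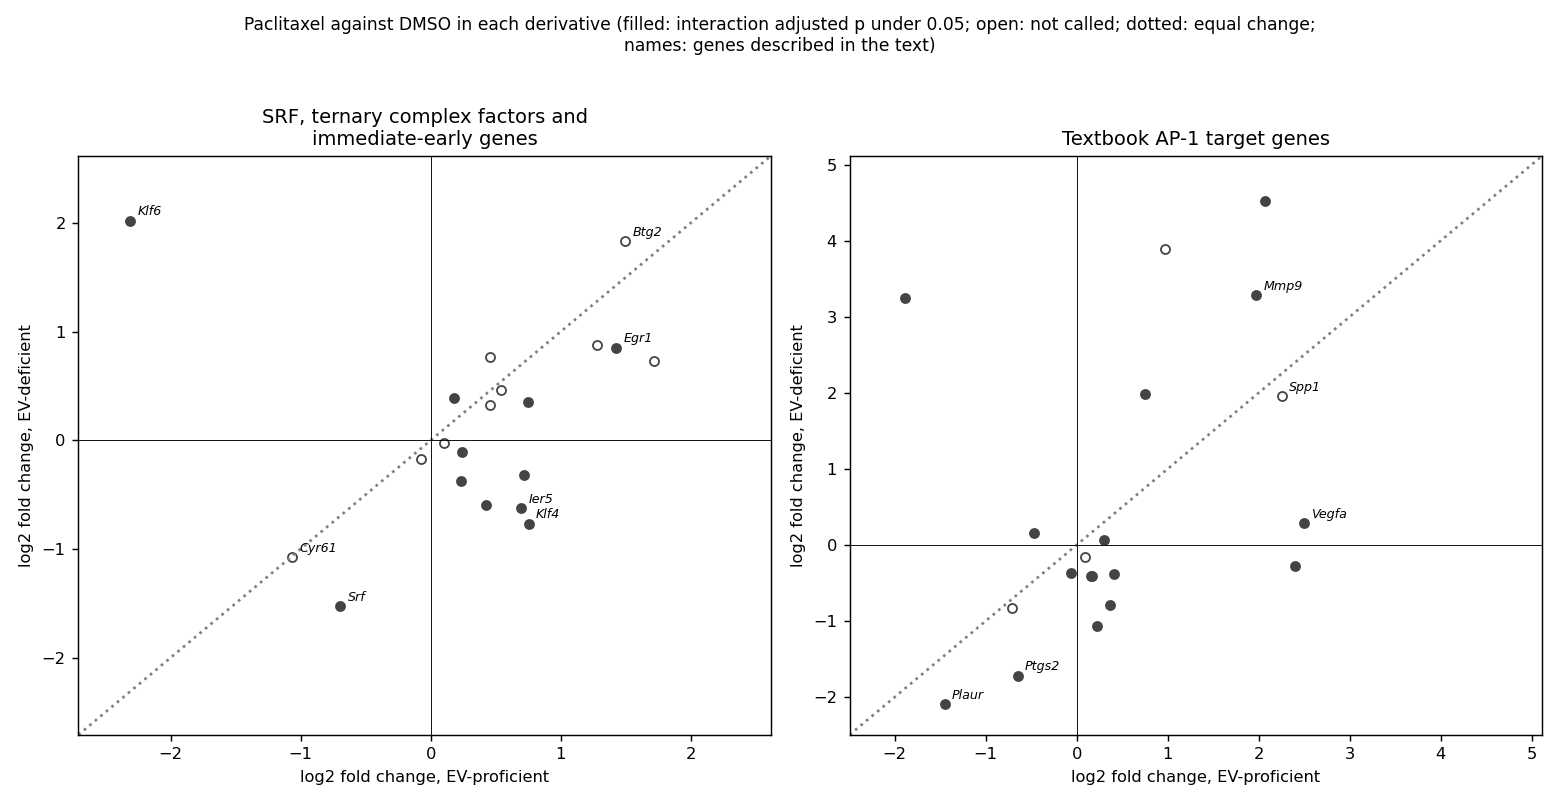
Log2 fold changes with paclitaxel in EV-proficient (horizontal axis) and EV-deficient cells (vertical axis) for the 20 immediate-early and SRF-related genes (left) and 20 of the 22 AP-1 target genes (right); the dotted line marks equal change and filled points have a called interaction. Egr1 and Btg2 lie to the upper right and Srf and Cyr61 to the lower left, Klf6 lies at the upper left, and Vegfa lies below the line.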

How the data were processed

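Read counts, whole numbers per gene without normalization, were deposited by the authors in 1 table for 12 libraries of stranded polyadenylated RNA. STAR 2.5.0a and the build GRCm38 are named in the submitters' processing notes; the counting program, annotation release and use of strand are not given in the sources used here. Columns were matched to samples by the sample descriptions in the labels (0 columns of other samples), and the titles gave groups and replicate numbers. The authors' 2 added rows, gfp and dngfr, were left out of library sizes and tests; gfp was at 0 counts throughout.

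The analysis used edgeR 4.0.16 under R 4.3.3: filterByExpr on the groups (minimum count 10; 18108 of 35104 genes with any count were kept), trimmed-mean scaling (factors 0.890 to 1.15), and 1 quasi-likelihood fit with a mean per group. P-values were adjusted by Benjamini-Hochberg over all tested genes, with a threshold of 0.05. A standard error is the log2 fold change over the root of its F statistic, and 95% intervals are 1.96 standard errors to each side. Log2 CPM used a prior count of 2. Floors cover counting error alone, because PCR copies of a molecule were counted as reads.

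Replicates of a group differed by a chi-square of 4.20 to 27.8 per degree of freedom, so all were counted. The members and lists (81 genes, 77 tested) were chosen with earlier results of these data known. The AP-1 genes are named whatever their values; list genes are at most the 2 highest and 2 lowest of a comparison past the threshold whose mean is 5 CPM or more, and are also described in the other derivative; 2 of them are counted in their list but not reported here. Map2k7 stands on 2 gene IDs, of which the one with more counts was used. GENCODE M21 (GRCm38) gave exon lengths and overlaps and held 99.5% of the table's gene IDs. The alternatives were other scalings and filters, DESeq2 1.42.0, limma-voom (limma 3.58.1), a replicate block, a fit to the compared groups alone, and fits with 1 library omitted. The fits were first tested on simulated counts.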

Additional observations from a re-analysis of the deposited data

Results flagged for a closer look

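The response to paclitaxel differed between the derivatives, by the interaction test, for 5 AP-1 genes: Fosl1 (log2 -1.46), Fosb (-1.14), Jun (-0.75), Junb (-0.69) and Fosl2 (-0.42), where 40.7% of all tested genes were called and 23.8% were called negative. In each case the value in the libraries labelled EV-deficient was the lower one. The Junb call was lost in 11 of 19 alternatives, DESeq2 (adjusted p 0.18) and 8 of the 12 fits that omitted a library among them.

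The dngfr row, which enters no comparison of genes, was 5.09-fold higher in the EV-deficient paclitaxel than in the EV-deficient DMSO libraries. In the libraries labelled EV-proficient it was lower under paclitaxel (2.47 to 3.76 CPM) than under DMSO (5.73 to 12.2 CPM). Its part in the differences between the EV labels was not tested.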

How the results depend on the processing

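Among the values of the 9 genes under the alternatives, 955 kept their direction and their side of the threshold, 52 lost a call, 28 gained one and 27 changed sign. All sign changes concerned values not called with the deposited libraries and the settings of the report. With upper-quartile scaling the paclitaxel effect became 0.0089 for Batf3 and 0.022 for Maff in EV-proficient cells and 0.054 for Fosb in EV-deficient cells, the averaged effect became 0.030 for Jun and 0.12 for Maff (called, edgeR adjusted p 0.031), and the EV-label difference of Jund under paclitaxel became 0.0050. That scaling called 3 genes between the EV labels under paclitaxel. Limma-voom gave 0.011 for Batf3 in EV-proficient cells, no low-count filter gave -0.012 for Maff in EV-deficient cells, and a filter of 1 CPM in 3 libraries gave 0.032 for Maff in the average. With 1 library left out, sign changes arose within -0.26 to 0.098 (Batf3), -0.14 to 0.014 (Maff) and -0.21 to 0.081 (Fosl1) for paclitaxel in EV-proficient cells; within -0.41 to 0.029 (Fosb) and -0.0081 to 0.048 (Maff) in EV-deficient cells; within -0.063 to 0.013 (Maff) in the average; within -0.16 to 0.19 (Batf3) and -0.084 to 0.22 (Jund) between the EV labels under DMSO; and within -0.0019 to 0.16 (Maff) for the interaction. The counts of called AP-1 genes then ranged from 2 to 5 between the EV labels under DMSO and from 3 to 6 under paclitaxel. The Junb share without division by length was 34.6%, 55.9%, 36.0% and 53.5% (EV-proficient DMSO and paclitaxel, then EV-deficient DMSO and paclitaxel), and with the longest transcript 65.2% and 62.9% in the paclitaxel groups. Of 590 list counts, 18 moved by more than 1.5 times, and of 2024 values of named list genes 39 lost a call and 0 changed sign. Batf3, with 68 to 230 counts a library, has the least depth of the 9. The cause of these changes was not tested.

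A replicate block left the count of called AP-1 genes as it was in all 6 comparisons (6, 7, 4, 5, 5 and 7), although Fosl2 (-0.16) lost and Junb (-0.42) gained a call between the EV labels under paclitaxel. The numbers were not taken to pair the samples. Deviations of same-numbered libraries correlated between -0.081 and 0.097 in 18 pairs. A library correlated best with its own number in 16 of 36 cases, each a choice among the 3 libraries of another group. Correlations this weak cannot settle whether the numbers mark shared rounds of culture.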
